A study of Homo sapiens with 9 samples.

Results

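The nuclear genes of the respiratory chain are described here in U251, an established human glioblastoma cell line, after knockdown of PTBP1, a polypyrimidine tract binding protein that regulates splicing. Members were the rows of the expression table whose gene symbol names a structural subunit of complex I, II, III, IV or the ATP synthase (symbols that start with NDUFA, NDUFB, NDUFC, NDUFS or NDUFV and end in a number, the SDH genes, and symbols that start with UQCR, COX4 to COX8 or ATP5). This gave 87 members of 22295 rows, with 37 for complex I, 4 for complex II, 9 for complex III, 17 for complex IV and 20 for the ATP synthase, and no pseudogene was among them. The rule reads symbols alone, so NDUFA4 is counted with complex I by its name although it is known as a subunit of complex IV, and UQCRHL, a near copy of UQCRH, is kept. Cells of the sh-Luci-3d group were infected with a lentivirus carrying a hairpin against luciferase and collected on day 3. The sh-Ptbp1-3d and sh-Ptbp1-7d groups received a hairpin against PTBP1 and were collected on days 3 and 7. Each group has 3 libraries of total RNA, 9 in all, and the study moved cells of both hairpins to a neuronal induction medium 2 days after infection. No day 7 library of the luciferase hairpin was analysed here, so in each comparison with sh-Ptbp1-7d the time in culture, the time in the medium and the length of the knockdown cannot be told apart. Nothing in the labels says that the libraries of a group came from separate cultures, so the p-values measure only the spread between these libraries, which may be technical.

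Respiratory complexes I to IV pass electrons from NADH and succinate to oxygen in the inner mitochondrial membrane, and complexes I, III and IV pump protons as they do so. The ATP synthase, also called complex V, lets the protons flow back through a ring of c subunits and uses the rotation to make ATP. A few hydrophobic subunits are encoded in mitochondrial DNA and all others are nuclear, translated in the cytosol and imported, so each complex is built from transcripts of both genomes. Many of these nuclear promoters are known targets of NRF1 and of the ETS factor GABP.

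PTBP1 itself, the target of the hairpin, stood at 111, 112 and 124 FPKM (fragments counted on a gene, divided by its length and by the size of the library) in the sh-Luci-3d libraries, at 66.2, 64.4 and 61.0 in sh-Ptbp1-3d and at 49.8, 50.7 and 51.0 in sh-Ptbp1-7d, in replicate order. The fall was already past the FDR on day 3 (log2 fold change -0.85, adjusted p = 0.00314 by limma, the test explained below). Of 8 markers set for the glioma line, 5 had a mean above 1 FPKM, and GFAP and S100B were below 1 in each group. The summed level of that list was 6260 to 7630 FPKM in sh-Luci-3d, 6950 to 7590 in sh-Ptbp1-3d and 2130 to 2290 in sh-Ptbp1-7d. That sum was mostly VIM (log2 fold change from day 3 to day 7 of the knockdown -1.91) and S100A6 (-1.67), while TNC rose to 77.6 FPKM (log2 fold change 1.61, adjusted p = 4.62e-06). Of 8 neuronal markers 5 had a mean above 1 FPKM, and their summed level was 483 to 521, 554 to 568 and 251 to 258 FPKM in the same order of groups. Most of that sum was TUBB3 (log2 fold change -1.42, adjusted p = 6.91e-07) and NEFL (-1.22, adjusted p = 3.65e-07), which fell, while MAP2 rose from 20.3 to 38.9 FPKM (0.94, adjusted p = 0.00058). STMN2 was above 0 in the sh-Ptbp1-3d group through 1 library alone. Both sums were lowest at day 7, and their part in the day 7 results was not tested. In these bulk libraries fewer cells of a type and less RNA per cell cannot be told apart. All 6 markers of blood and immune cells and all 3 of endothelial cells had means below 1 FPKM. The sum of FPKM over all rows was 367400 to 404900 per library, and since FPKM carry no read numbers the depth behind each value is unknown.

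Promoters were looked at first, because the members share control by a few factors. RefSeq promoters (GRCh38.p14, 250 bases before to 50 after the start) were matched for 69 members. The NRF1 letters GCATGCGC were found on either strand in 13 of 69 members (18.8%) and in 3.27% of all 27305 promoters of the same length. The ETS letters CCGGAAGT occurred in 10 members (14.5%, against 4.44% of all promoters), and the YY1 letters AAGATGGC in 11 (15.9%, against 3.03%), mostly just after the start. TATAAA was in 7 members (10.1%, against 12% of all promoters) and the ERR letters TCAAGGTCA in 1. These are matches of letters and not sites shown to be bound. Upstream stretches that hold no annotated exon are printed for members that carry the NRF1 letters, namely NDUFB4, which fell at day 7, and COX5B and COX6A1, which did not pass the test, and for NDUFB10, which fell at day 7 with none of these letters in its window; capitals mark a match of a motif on either strand.
NDUFB4 (chr3:120596086-120596308, forward strand): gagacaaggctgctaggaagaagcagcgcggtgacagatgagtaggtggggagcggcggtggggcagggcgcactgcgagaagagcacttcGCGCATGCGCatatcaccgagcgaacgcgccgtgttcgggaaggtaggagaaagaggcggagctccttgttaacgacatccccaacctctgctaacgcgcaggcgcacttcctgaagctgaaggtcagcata
NDUFB10 (chr16:1959288-1959507, forward strand): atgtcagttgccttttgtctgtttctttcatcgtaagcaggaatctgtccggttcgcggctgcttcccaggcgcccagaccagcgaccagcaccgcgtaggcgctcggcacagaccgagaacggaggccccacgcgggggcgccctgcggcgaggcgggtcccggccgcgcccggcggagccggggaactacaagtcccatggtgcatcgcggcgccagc
COX5B (chr2:97645812-97646039, forward strand): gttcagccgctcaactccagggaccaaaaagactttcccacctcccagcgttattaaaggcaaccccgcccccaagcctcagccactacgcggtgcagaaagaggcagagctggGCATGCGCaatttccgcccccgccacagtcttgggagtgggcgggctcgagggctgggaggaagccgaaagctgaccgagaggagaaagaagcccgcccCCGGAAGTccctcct
COX6A1 (chr12:120437863-120438089, forward strand): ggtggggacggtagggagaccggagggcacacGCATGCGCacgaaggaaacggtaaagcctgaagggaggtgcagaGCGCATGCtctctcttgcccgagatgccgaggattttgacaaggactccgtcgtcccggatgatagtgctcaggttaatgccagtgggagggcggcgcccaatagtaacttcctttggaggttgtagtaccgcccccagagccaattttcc
In NDUFB4 the NRF1 letters match on both strands at an offset of 2 bases and so print as 1 run of 10. COX5B carries the NRF1 letters on the same strand 136 bases before the start and the ETS letters 37 bases before it. Among the 9 members with an entry that fell from day 3 to day 7 of the knockdown, 2 had the NRF1 letters (NDUFB4 and ATP5F1C), none the ETS letters and 3 the YY1 letters (UQCRC1, ATP5PB and ATP5PO), where 11, 10 and 7 of the 54 members that did not pass had them. These counts were not tested.

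Of the 87 members, 80 had a mean of at least 0.1 FPKM and were tested among 15551 genes. The other 7 were at or near 0 in each library: COX4I2, COX6A2, COX6B2, COX7B2 and COX8C, which are isoforms known from lung, muscle, testis and other tissues, ATP5MGL, a near copy of ATP5MG, and the readthrough transcript ATP5MF-PTCD1. COX7A1, the muscle and heart isoform, passed the filter at a mean of 0.176 FPKM. The members were among the more abundant transcripts, with a median level of 60.1 FPKM over all 87 against 5.91 for all genes tested. ATP5F1B, the catalytic beta subunit of the ATP synthase, was highest at 448 FPKM, followed by COX6B1 (297), COX8A (284), NDUFS5 (271) and COX6A1 (269). Within complexes the levels were far from equal: complex I ranged from 4.76 FPKM (NDUFV3) to 271 (NDUFS5), a 56.9-fold span, while the 4 subunits of complex II lay within 2.3-fold, from SDHD (25.9) to SDHC (59.4). ATP5F1A, which pairs with ATP5F1B in the catalytic hexamer, was listed at 41.7 FPKM, and the ratio of ATP5F1B to ATP5F1A was 12.7 ± 0.689 in sh-Luci-3d (SD, n = 3). FPKM depend on the length used for each gene. The longest annotated coding transcript has 4676 bases for NDUFV3 and 548 for NDUFS5, and 5818 for ATP5F1A and 1839 for ATP5F1B. The part of length in these differences was not tested.

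At day 3, no member passed a false discovery rate (FDR) of 0.05 in sh-Ptbp1-3d against sh-Luci-3d by limma on log2(FPKM + 0.1), where 0.0322% of all genes did (5 genes). The members' median log2 fold change was 0.09, against 0.01 for all genes, and the 95% interval of 78 of the 80 members lay within 2-fold in either direction (97.5%, against 84.2% of all genes). The libraries of both groups did not overlap for 8 members (10%), and 10.8% of all genes did the same. These 8 were SDHD, ATP5F1A, ATP5MC1 and ATP5PB, higher in sh-Ptbp1-3d, and NDUFS4, ATP5MG, ATP5PF and ATP5PO, lower. ATP5MC1, which encodes subunit c, stood at 70.4, 72.8 and 87.3 FPKM in sh-Luci-3d and at 109, 121 and 99.0 in sh-Ptbp1-3d, a log2 fold change of 0.51 (SE 0.103, adjusted p = 0.271). NDUFS4, an accessory subunit near the NADH-oxidising end of complex I, stood at 54.9, 55.5 and 59.0 FPKM against 46.1, 47.2 and 44.4, a log2 fold change of -0.30 (SE 0.0733, adjusted p = 0.401). SDHD, a membrane anchor of complex II, stood at 22.6, 22.1 and 22.7 FPKM against 25.7, 25.9 and 25.4 (log2 fold change 0.19, adjusted p = 0.63). The groups were apart for these genes, but not by enough to pass across all genes tested. The size of the ATP5F1A difference came mainly from sh-Ptbp1-3d replicate 3, which was at 74.0 FPKM. The others of its group, at 38.1 and 36.1, lay only just above sh-Luci-3d at 35.9, 33.4 and 34.7.

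The day 3 comparison depended on sh-Luci-3d replicate 3. Its members summed to 8600 FPKM, where replicates 1 and 2 had 6925 and 6624, and it was above both for 59 of the 80 members, against 36.9% of all genes. NDUFA13, an accessory subunit of complex I, stood at 137 and 116 FPKM in replicates 1 and 2 and at 302 in replicate 3. ATP5IF1, the inhibitor of ATP hydrolysis by the synthase, stood at 52.9 and 55.2 and at 138. The difference moved with GC content: the members with transcripts of at least 55% GC (18 genes) were a median 0.52 higher (log2) in this library than in the others of its group, and those under 45% GC (25 genes) 0.02 higher. Over all genes the same medians were 0.29 (4251 genes) and -0.31 (4862 genes). The part of GC content in the result was addressed only by a fit with GC content and transcript length corrected in each library, in which 1 member, ATP5MC1, passed at day 3 (log2 fold change 0.48, adjusted p = 0.0287), beside 0.21% of all genes. Without sh-Luci-3d replicate 3, 19 members passed (18 higher and 1 lower), beside 6.34% of all genes. The higher genes included NDUFA13 (log2 fold change 0.93, adjusted p = 0.0127), NDUFA2 (0.79, adjusted p = 0.0081), NDUFA1 (0.61, adjusted p = 0.0132), ATP5IF1 (0.64, adjusted p = 0.0457) and ATP5MC1 (0.61, adjusted p = 0.00874), and the lower gene was NDUFS4 (-0.27, adjusted p = 0.0439). NDUFA13, NDUFA2 and NDUFA1 are named for their size in this fit, after the values were seen.

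**Figure D1:**
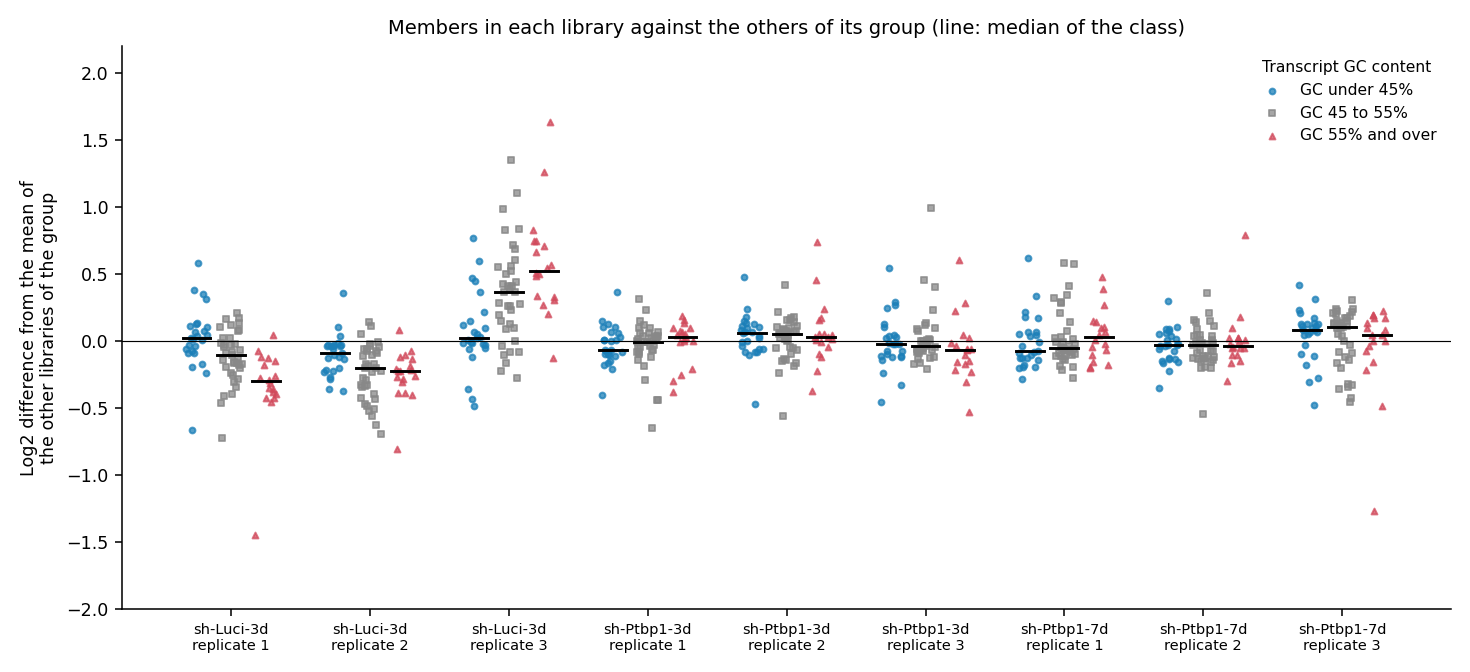
Log2 difference (log2(FPKM + 0.1) scale) of each tested member in a library from the mean of the other libraries of its group, for 9 libraries, with members split by transcript GC content into under 45% (circles, 25 genes), 45 to 55% (squares, 37 genes) and 55% and over (triangles, 18 genes) and the median of each class as a line. In sh-Luci-3d replicate 3 the medians rise from 0.02 to 0.37 to 0.52 with GC content, while in the sh-Ptbp1 libraries they lie between -0.08 and 0.10.

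Between days 3 and 7 of the knockdown, 13 members passed an FDR of 0.01 (16.2% of those tested), where 35.8% of all genes did. Of these 2 rose, against 20.3% of all genes, and 11 fell, against 15.5%. With libraries rescaled to equal sums (TPM) the split was 6 higher and 8 lower, and with quantile normalization 4 and 10. The shares of all genes by direction were not counted under these scalings, and those above belong to the fit without rescaling. A single member, ATP5PB, also changed by more than 2-fold (14.2% of all genes did both). For 39 members (48.8%) every library of one day lay apart from those of the other, as for 62.3% of all genes. The median log2 fold change of the members was -0.17, against 0.09 for all genes. Rescaling to equal sums moved the medians to -0.07 and 0.20, and quantile normalization to -0.09 and -0.01, so that the members' median stayed below that of all genes under each scaling tried. The 95% interval lay within 2-fold for 76 of 80 members (95%), against 60.3% of all genes, which have a lower median level. Leaving out sh-Ptbp1-7d replicate 2 left 8 members past the FDR (27.3% of all genes), and leaving out sh-Luci-3d replicate 3, which enters this comparison through the shared estimate of spread alone, gave 25 (6 higher and 19 lower; 43.4% of all genes).

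**Figure D2:**
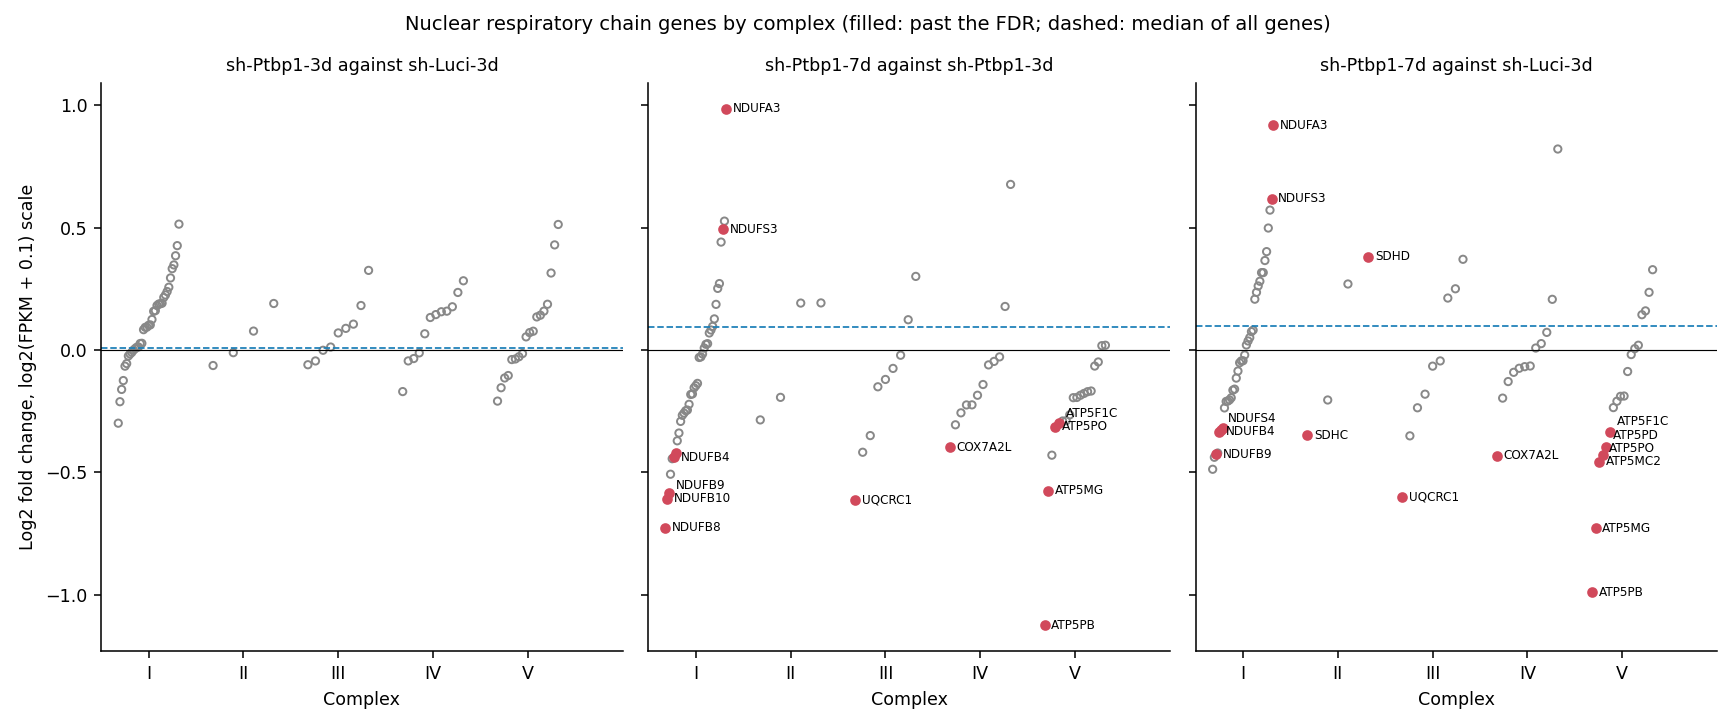
Log2 fold change (log2(FPKM + 0.1) scale) of the 80 tested members by complex, sorted by value within each complex, in the 3 comparisons. Filled points passed the FDR (0.05 in the first comparison, 0.01 in the others) and are named with 1 exception in each comparison with day 7, open points did not, and the dashed line is the median of all genes; no member is filled at day 3, and ATP5PB (-1.13) and NDUFA3 (0.99) lie farthest from 0 between days 3 and 7.

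The deepest fall was that of ATP5PB, which encodes subunit b of the peripheral stalk, the arm that holds the catalytic head of the ATP synthase still against the rotor. ATP5PB (ENSG00000116459.10, chr1:111448864-111462773, GRCh38) stood at 65.8, 60.1 and 62.2 FPKM in sh-Luci-3d, 69.7, 70.9 and 65.9 in sh-Ptbp1-3d and 29.7, 32.1 and 32.7 in sh-Ptbp1-7d. Each day 7 library lay below each day 3 library, and the mean at day 7 was 45.8% of that in sh-Ptbp1-3d (log2 fold change -1.13, SE 0.0731, adjusted p = 6.31e-07). Its call held in all 20 alternatives, with adjusted p from 1.49e-07 to 2.14e-05. The other stalk genes moved less: ATP5PO, which encodes the oligomycin sensitivity conferring protein at the top of the stalk, stood at 52.9, 49.8 and 51.4 FPKM on day 3 and at 37.7, 41.0 and 45.5 on day 7 (log2 fold change -0.31, SE 0.0822, adjusted p = 0.00883), ATP5PD changed by -0.29 (adjusted p = 0.0218) and ATP5PF by 0.02 (adjusted p = 0.878). The ratio of ATP5PB to the mean of the other stalk genes was 0.65 ± 0.0276 in sh-Luci-3d, 0.781 ± 0.0146 in sh-Ptbp1-3d and 0.416 ± 0.0296 in sh-Ptbp1-7d (SD, n = 3), so the stalk genes did not move in proportion. This ratio, and with it ATP5PD and ATP5PF, was chosen after the values were seen. The opposite-strand gene WDR77 overlaps ATP5PB in its exons and was also lower on day 7 (log2 fold change -0.45, adjusted p = 0.000785, from 24.6 to 17.9 FPKM), and whether the counting used strand is not given in the sources used here. The call for ATP5PO was the least stable: it was lost in 12 of 20 alternatives, including without sh-Ptbp1-7d replicate 1 (log2 fold change -0.25, adjusted p = 0.041) or 2 (adjusted p = 0.0315), without any of the sh-Ptbp1-3d libraries (0.0217 to 0.0378) and without sh-Luci-3d replicate 1 (0.0118) or 2 (0.0129).

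Of the remaining ATP synthase genes, 2 fell. ATP5MG, subunit g of the membrane part where the enzyme dimerises, stood at 81.4, 72.0 and 76.8 FPKM in sh-Luci-3d, 65.6, 71.0 and 70.1 in sh-Ptbp1-3d and 45.5, 45.5 and 47.7 in sh-Ptbp1-7d (log2 fold change -0.57, SE 0.073, adjusted p = 8.43e-05). Its day 7 libraries lay close together and below each day 3 library. ATP5F1C, the central shaft of the motor, which is named here after its values were seen, fell from 135 ± 5.86 to 109.5 ± 5.66 FPKM (log2 fold change -0.30, adjusted p = 0.00524), and its call was lost in 8 of 20 alternatives, among them without sh-Ptbp1-3d replicate 1 (adjusted p = 0.0278) or 2 (0.0258) or sh-Ptbp1-7d replicate 1 (0.0249) or 2 (0.0251). ATP5F1B stood at 467, 471 and 449 FPKM on day 3 and at 419, 439 and 468 on day 7 (log2 fold change -0.07, SE 0.0783, adjusted p = 0.515), and turned positive when libraries were rescaled to equal sums (0.04) or quantile normalized (0.48, adjusted p = 9.32e-05). ATP5F1A changed by -0.19 (adjusted p = 0.487) with its high sh-Ptbp1-3d replicate 3 and by 0.14 (adjusted p = 0.228) without it. ATP5IF1 stood at 85.7, 84.7 and 82.1 FPKM on day 3 and at 97.8, 70.8 and 60.8 on day 7 (log2 fold change -0.17, SE 0.31, adjusted p = 0.681), so its day 7 libraries lay on both sides of day 3. Of all 18 tested ATP synthase genes 4 fell (22.2%) and none rose, where 15.5% of all genes fell and 20.3% rose.

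Subunit c, of which a ring of identical copies forms the rotor, is encoded by ATP5MC1, ATP5MC2 and ATP5MC3, which differ in their import sequences and give the same mature protein. ATP5MC2 made up 57.0 ± 6.19% of their summed FPKM in sh-Luci-3d, 47.1, 55.4 and 47.5% in sh-Ptbp1-3d replicates 1 to 3 and 44.7 ± 1.09% in sh-Ptbp1-7d. ATP5MC1 took 25.2 ± 1.46%, 32.3 ± 2.52% and 34.3 ± 1.41% (SD, n = 3), and its lowest share in the sh-Ptbp1 libraries (29.9%) was above its highest in sh-Luci-3d (26.9%). No test was run on these shares. ATP5MC2 stood at 147, 208 and 157 FPKM in sh-Ptbp1-3d and at 119, 127 and 130 in sh-Ptbp1-7d (log2 fold change -0.43, SE 0.118, adjusted p = 0.0112), ATP5MC1 changed by -0.18 (adjusted p = 0.161) and ATP5MC3 by 0.02 (SE 0.219, adjusted p = 0.955).

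**Figure D3:**
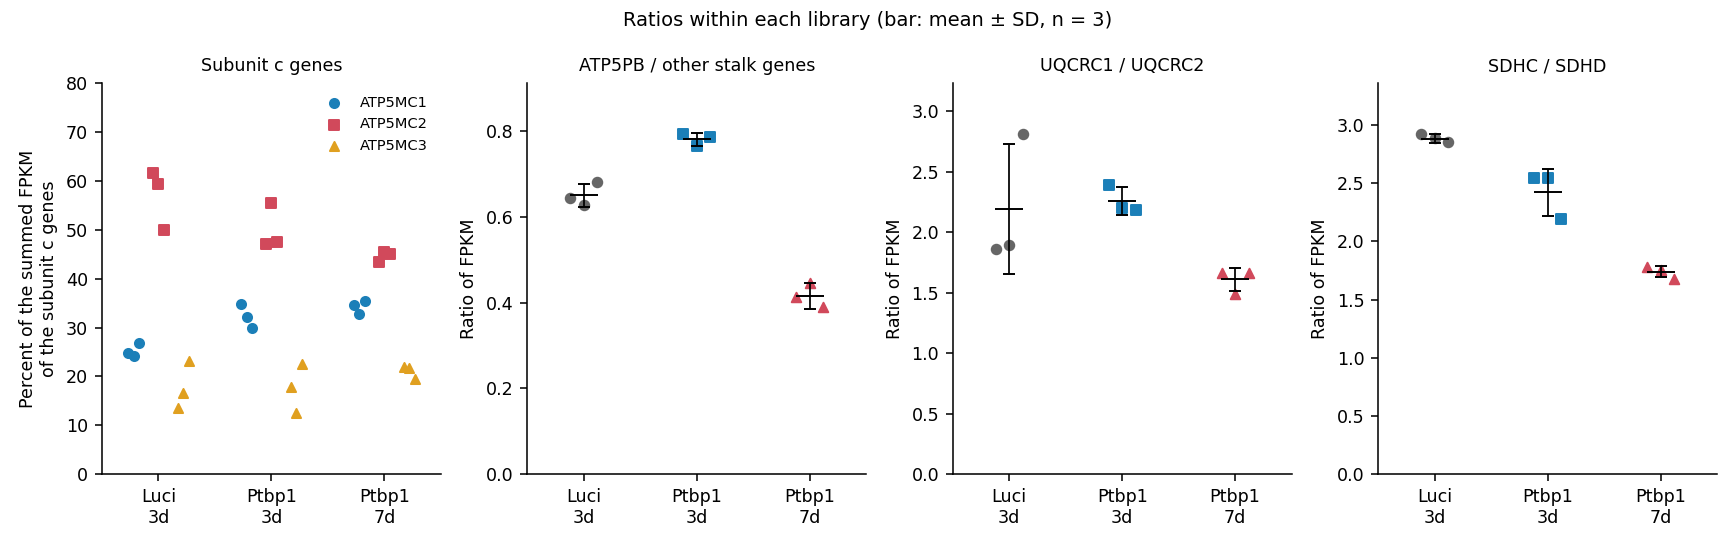
Share of the summed FPKM of the subunit c genes taken by ATP5MC1, ATP5MC2 and ATP5MC3 in each library (left), and the ratio of FPKM of ATP5PB to the mean of ATP5PD, ATP5PF and ATP5PO, of UQCRC1 to UQCRC2 and of SDHC to SDHD (points, libraries; bars, mean ± SD, n = 3). The ATP5PB ratio at day 7 (0.389 to 0.447) lies below each day 3 library (0.627 to 0.793), and the SDHC to SDHD ratio steps from 2.88 to 2.42 to 1.74.

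In complex I, 2 of 37 genes rose and 5 fell (18.9% called, against 35.8% of all genes). NDUFA3, an accessory subunit of the membrane arm, showed the largest rise of all members: 44.8, 50.9 and 66.8 FPKM in sh-Luci-3d, 45.4, 51.7 and 56.6 in sh-Ptbp1-3d and 114, 98.8 and 91.4 in sh-Ptbp1-7d (log2 fold change 0.99, SE 0.145, adjusted p = 0.000245). No day 7 library overlapped those of day 3. TFPT, which overlaps NDUFA3 on the opposite strand, was at 7.75 and 8.11 FPKM (log2 fold change 0.05, adjusted p = 0.827). NDUFS3, a core subunit of the arm that passes electrons to ubiquinone, rose from 60.0, 64.0 and 59.5 FPKM to 83.0, 82.5 and 93.2 (log2 fold change 0.49, SE 0.0914, adjusted p = 0.00114). PTPMT1, CELF1 and KBTBD4 overlap its exons and did not pass (log2 fold changes 0.15, -0.11 and -0.14). Both calls held in all 20 alternatives.

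The 5 genes that fell included 4 of the 11 NDUFB genes (36.4%, where 15.5% of all genes fell), which encode accessory subunits of the membrane arm. No NDUFB gene rose, so the share called in either direction was also 36.4%, near the 35.8% of all genes. Of the 13 NDUFA genes 1 rose and 0 fell. A split by family was not among the planned counts and was not tested. NDUFB8 stood at 84.5, 88.5 and 123 FPKM in sh-Luci-3d, 105, 119 and 121 in sh-Ptbp1-3d and 83.8, 53.8 and 73.8 in sh-Ptbp1-7d (log2 fold change -0.73, SE 0.172, adjusted p = 0.00504). The call for NDUFB8 was lost in 7 of 20 alternatives, among them without sh-Ptbp1-7d replicate 2, its lowest library (log2 fold change -0.54, adjusted p = 0.0194), and without sh-Ptbp1-3d replicate 1 (adjusted p = 0.01), replicate 2 (0.0191) or replicate 3 (0.0288) or sh-Ptbp1-7d replicate 3 (0.0121). NDUFB10 stood at 120, 123 and 117 FPKM on day 3 and at 81.1, 72.7 and 82.0 on day 7 (log2 fold change -0.61, SE 0.124, adjusted p = 0.0021), and its call was lost without sh-Ptbp1-7d replicate 2 (-0.55, adjusted p = 0.0121) or sh-Ptbp1-3d replicate 3 (-0.63, adjusted p = 0.01). NDUFB9 went from 114, 115 and 109 FPKM to 69.0, 80.3 and 76.5 (log2 fold change -0.58, SE 0.105, adjusted p = 0.000936). NDUFB4, named after its values were seen, went from 113, 118 and 124 to 90.2, 86.1 and 86.2 (-0.44, adjusted p = 0.00106). For each of these genes the sh-Ptbp1-7d libraries lay below all sh-Ptbp1-3d libraries. Of the other NDUFB genes 4 had a negative and 3 a positive log2 fold change, and NDUFB5, named for that reason, was the most positive at 0.53 (adjusted p = 0.0151). NDUFB8 shares exons on the same strand with the unnamed locus AL133352.1 (11.4 and 9.74 FPKM, adjusted p = 0.839) and on the opposite strand with HIF1AN.

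Some core subunits of complex I, but not all, carry its flavin and iron-sulfur centres. Among the core genes NDUFS3 was the one that rose. NDUFV1, the subunit that binds NADH, went from 65.8 ± 5.75 to 57.9 ± 4.49 FPKM (log2 fold change -0.18, SE 0.17, adjusted p = 0.401), and NDUFS1 from 13.2 ± 0.314 to 13.03 ± 2.4 (-0.03, SE 0.171, adjusted p = 0.896; SD, n = 3). NDUFS5, the most abundant gene of the complex, stood at 276, 308 and 276 FPKM and then at 235, 234 and 255 (log2 fold change -0.25, adjusted p = 0.0308).

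**Figure D4:**
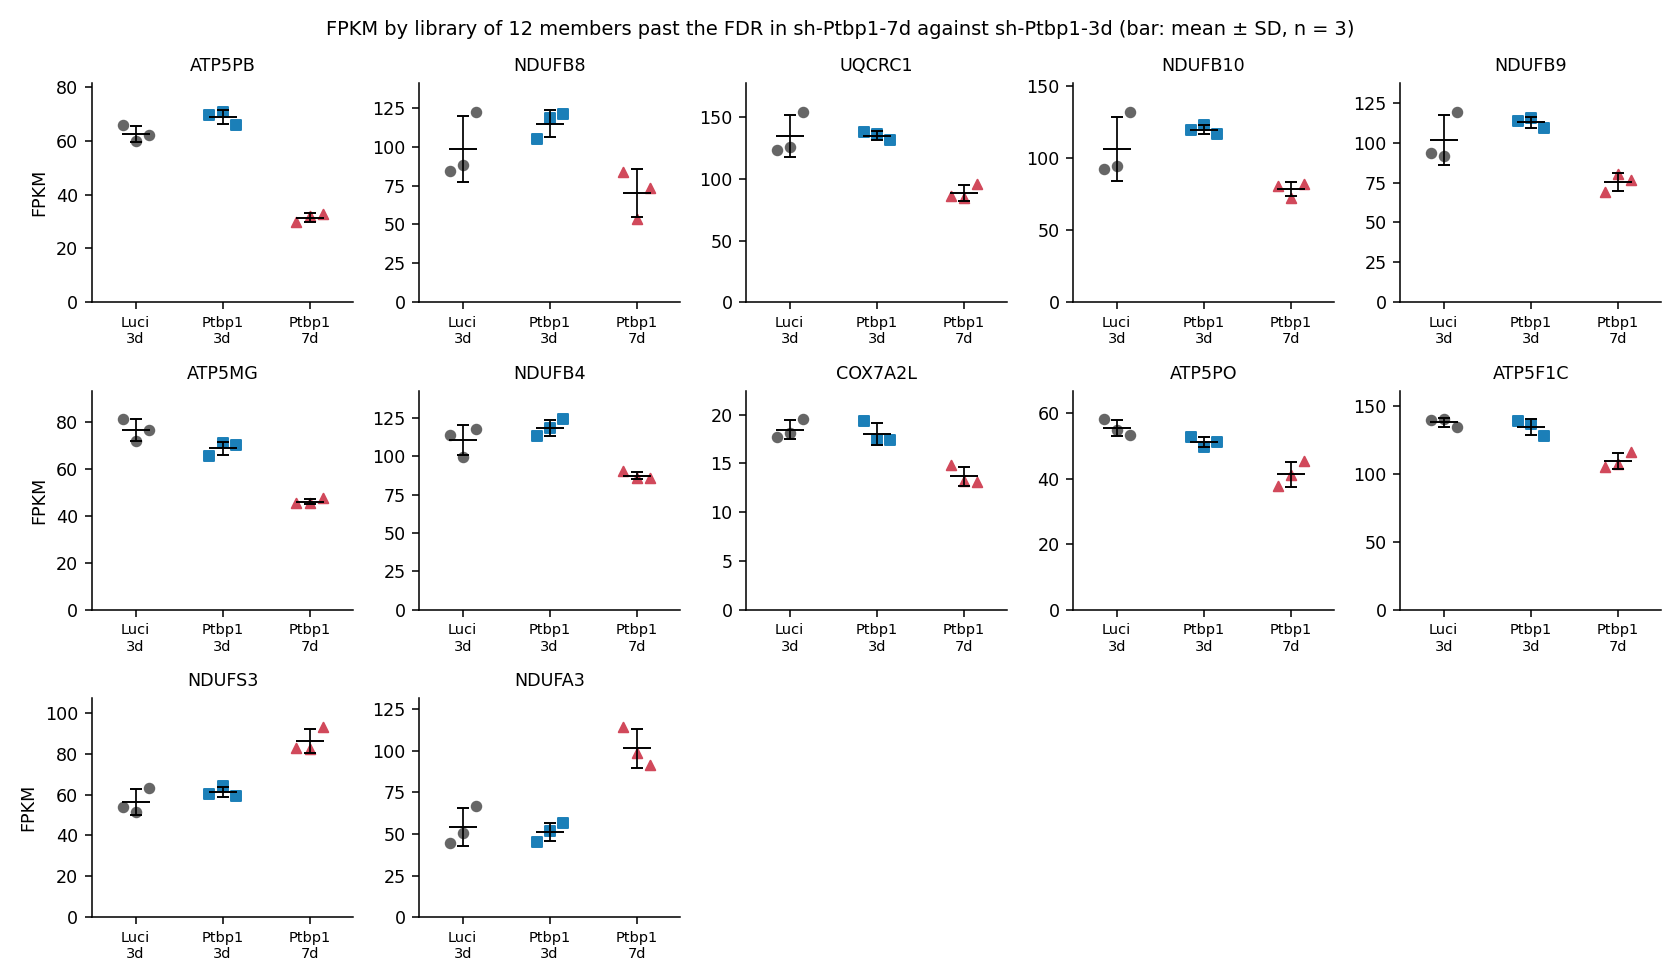
FPKM in each library of 12 of the 13 members that passed an FDR of 0.01 between days 3 and 7 of the knockdown, ordered by log2 fold change (points, libraries; bars, mean ± SD, n = 3; each axis starts at 0). In each panel the day 7 libraries lie clear of sh-Ptbp1-3d, and for NDUFB8, NDUFB10 and NDUFB9 sh-Luci-3d replicate 3 lies above the other sh-Luci-3d libraries.

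Complex II had no gene past the FDR in this comparison, but calls were gained under other settings: SDHA (0.29, adjusted p = 0.01) and SDHD (0.29, adjusted p = 0.00722) with equal sums, SDHC with median-ratio scaling (-0.37, adjusted p = 0.003) or without sh-Ptbp1-3d replicate 3 (-0.36, adjusted p = 0.00491), and SDHA (0.19, adjusted p = 0.00907) and SDHC (-0.29, adjusted p = 0.00934) without sh-Luci-3d replicate 3. SDHC went from 65.2, 65.9 and 55.7 FPKM to 47.7, 53.4 and 51.9 (log2 fold change -0.29, SE 0.0836, adjusted p = 0.0155) and SDHD from 25.7, 25.9 and 25.4 to 26.8, 30.6 and 30.9 (0.19, SE 0.0764, adjusted p = 0.0576). Both proteins hold the heme and bind ubiquinone together, and the ratio of SDHC to SDHD was 2.88 ± 0.0373 in sh-Luci-3d, 2.42 ± 0.204 in sh-Ptbp1-3d and 1.74 ± 0.049 in sh-Ptbp1-7d (SD, n = 3), with no overlap between groups. Like the ratio of the stalk genes, it was chosen after the values were seen and not tested. SDHA, the flavoprotein that oxidises succinate, changed by 0.19 (adjusted p = 0.0823), and SDHB, its iron-sulfur partner, by -0.19 (adjusted p = 0.142).

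In complex III a single gene of 9 fell (11.1%, where 15.5% of all genes fell). UQCRC1, a core subunit on the matrix side, stood at 124, 126 and 155 FPKM in sh-Luci-3d, 138, 136 and 132 in sh-Ptbp1-3d and 85.9, 84.2 and 95.7 in sh-Ptbp1-7d (log2 fold change -0.61, SE 0.0955, adjusted p = 0.000366). Each day 7 library was below all 6 day 3 libraries. Its partner UQCRC2, named after its value was seen, changed by -0.12 (SE 0.0901, adjusted p = 0.293), and UQCRFS1, the Rieske iron-sulfur protein, by 0.12 (SE 0.0748, adjusted p = 0.193). UQCRH, the hinge subunit that faces cytochrome c, stood at 203, 211 and 204 FPKM and then at 160, 158 and 146 (log2 fold change -0.42, SE 0.134, adjusted p = 0.0238). Its near copy UQCRHL was listed at 2.83 FPKM on average, and reads of both may have been divided between them. UQCRH gained a call with the 2 groups fitted alone (adjusted p = 0.000412) or without sh-Luci-3d replicate 3 (0.000134). UQCR11 did so in the same fits but was higher (0.30, adjusted p = 0.00929 and 0.00564). With GC and length correction UQCRC2 passed (-0.23, adjusted p = 0.00532).

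In complex IV none of the 10 ubiquitous subunits that were tested passed (35.8% of all genes did), and their median log2 fold change was -0.16. COX8A (-0.31) gained a call with the 2 groups fitted alone (adjusted p = 0.00324) or without sh-Luci-3d replicate 3 (0.0014). COX4I1, which is needed for assembly of the complex, went from 228 ± 14.7 to 195 ± 7.68 FPKM (log2 fold change -0.22, SE 0.115, adjusted p = 0.13), COX5A from 72.1 ± 3.86 to 61.9 ± 6.42 (-0.22, SE 0.0955, adjusted p = 0.0728) and COX6B1, the most abundant, from 310 ± 22.3 to 297 ± 6.95 (-0.06, SE 0.101, adjusted p = 0.647; SD, n = 3). The sign of COX6B1 turned with the scaling (0.04 with equal sums and 0.38 with quantile normalization, adjusted p = 0.00137). COX7A2L, which joins complexes III and IV into a supercomplex and is no regular subunit, fell from 19.3, 17.4 and 17.4 FPKM to 14.8, 13.2 and 13.1 (log2 fold change -0.40, SE 0.0869, adjusted p = 0.0032). Its call was lost without sh-Ptbp1-3d replicate 1 (adjusted p = 0.0188), sh-Ptbp1-7d replicate 2 (0.0169) or replicate 3 (0.0124), and with equal sums (0.0146). In each isoform pair the ubiquitous form was the one expressed: COX6A1 was at 269 FPKM with COX6A2 at 0, and COX7A2 at 103 with COX7A1 at 0.176. NDUFA4, the complex IV subunit with a complex I name, changed by -0.14 (SE 0.082, adjusted p = 0.191).

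Against sh-Luci-3d, 16 members passed an FDR of 0.01 on day 7 (35.6% of all genes did), 3 higher (20.6% of all genes) and 13 lower (15% of all genes). The split was 8 and 9 with equal sums and 7 and 11 with quantile normalization, for which all genes were not counted by direction. In the fit without rescaling no member past the FDR also changed by more than 2-fold (14.6% of all genes did both). The libraries did not overlap for 30 members, 37.5%, beside 55.9% of all genes. This comparison shares the sh-Ptbp1-7d libraries with the one above. ATP5PB (log2 fold change -0.99, adjusted p = 1.57e-06), ATP5MG (-0.73, adjusted p = 1.46e-05), UQCRC1 (-0.60, adjusted p = 0.000408), NDUFS3 (0.62, adjusted p = 0.000248) and NDUFA3 (0.92, adjusted p = 0.000384) passed here too. So did NDUFB9 (-0.43, adjusted p = 0.00633) and NDUFB4 (-0.34, adjusted p = 0.00533), while NDUFB8 (-0.49, adjusted p = 0.0361) and NDUFB10 (-0.42, adjusted p = 0.0161) did not. In this comparison the call for NDUFB9 held in 9 of 20 alternatives and that for NDUFB4 in 11. Both were lost without sh-Ptbp1-7d replicate 1 (adjusted p = 0.0303 and 0.0129), 2 (0.0113 and 0.0234) or 3 (0.0161 and 0.0164). NDUFB10 passed with median-ratio scaling (adjusted p = 0.00911), quantile normalization (0.00474), GC and length correction (0.000136) or without sh-Luci-3d replicate 3 (0.00866). SDHD was higher (0.38, adjusted p = 0.0018) and SDHC lower (-0.35, adjusted p = 0.00534), as was NDUFS4 (-0.33, adjusted p = 0.00358). Each of these calls was lost without sh-Ptbp1-7d replicate 2 (adjusted p = 0.0114 for SDHD, 0.0114 for SDHC and 0.0214 for NDUFS4), that of NDUFS4 also without sh-Ptbp1-7d replicate 1 (0.0114), and that of SDHC without any one of the sh-Ptbp1-7d libraries (0.0114 to 0.0265) and without sh-Luci-3d replicate 1 (0.0197) or 2 (0.0136). With GC and length correction NDUFS4 (-0.17, adjusted p = 0.0264) and SDHC (-0.27, adjusted p = 0.0859) also lost their calls, and SDHD lost its own with median-ratio scaling (0.28, adjusted p = 0.0168). The calls for ATP5PB, ATP5MG, ATP5PO, UQCRC1, NDUFS3 and NDUFA3 held in all 20 alternatives, and the other 10 were lost in at least 1. The median over all members was -0.07, against 0.10 for all genes, and turned to 0.01 with equal sums. Without sh-Luci-3d replicate 3, 30 members passed (15 higher and 15 lower, beside 39.9% of all genes) and the members' median was 0.03. The medians of all genes in this fit and with equal sums are not given here. The members' medians alone do not place them against all genes. Without sh-Ptbp1-7d replicate 1 or 2, 8 and 6 passed, beside 28.5% and 27.8% of all genes.

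Summed over its genes, complex I stood at 3022 ± 61.9 FPKM in sh-Ptbp1-3d and 2700 ± 91.4 in sh-Ptbp1-7d, complex III at 695 ± 27.2 and 581 ± 13.4, complex IV at 1824 ± 49.3 and 1644 ± 58.0 and the ATP synthase at 2124 ± 63.7 and 1843 ± 49.4 (SD, n = 3). For these 4 complexes each day 7 sum lay below each sh-Ptbp1-3d sum. The sum over all rows was lower too, at 367400 to 379000 FPKM on day 7 against 386600 to 404900 in sh-Ptbp1-3d. Shares of that sum were not computed by complex, and its part in these differences was not tested. Complex II had 200.2 ± 5.32 and 193 ± 12.5 FPKM, with overlapping libraries. Against sh-Luci-3d the day 7 sums overlapped for complexes I, III and IV as well. Complex I had 2501, 2388 and 3406 FPKM in sh-Luci-3d and 2804, 2631 and 2666 in sh-Ptbp1-7d. The ATP synthase had 1976, 1908 and 2251 FPKM in sh-Luci-3d, each above its day 7 sums of 1823, 1806 and 1899. All members together took 1.93 to 2% of the table's FPKM in sh-Ptbp1-3d, 1.85 to 1.92% in sh-Ptbp1-7d and 1.71 to 2.14% in sh-Luci-3d.

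**Figure D5:**
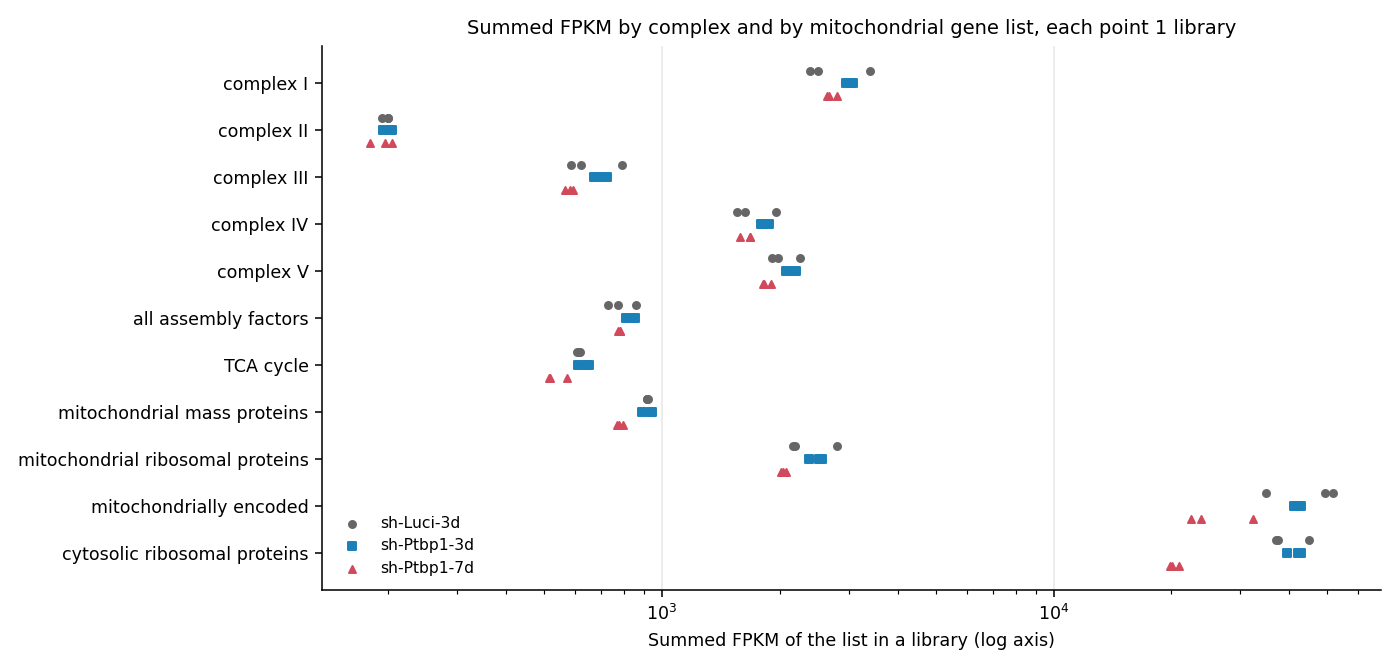
Summed FPKM (log axis) of the members of each complex and of other mitochondrial and ribosomal gene lists, each point 1 library of sh-Luci-3d (circles), sh-Ptbp1-3d (squares) or sh-Ptbp1-7d (triangles). Complex II overlaps in all groups, the other complexes lie slightly lower at day 7 than in sh-Ptbp1-3d, and the genes encoded in mitochondrial DNA and the cytosolic ribosomal proteins shift furthest, the latter from 39590 to 42760 FPKM in sh-Ptbp1-3d to 19880 to 20940 in sh-Ptbp1-7d.

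The mitochondrially encoded subunits of the same complexes were listed far above the nuclear ones and fell further. All 13 had a negative log2 fold change between days 3 and 7, with a median of -0.60. Of these 6 passed the FDR (46.2%, against 35.8% of all genes). MT-ATP6, the channel that meets the c ring, stood at 5909, 6006 and 5588 FPKM and then at 1961, 1981 and 2585 (log2 fold change -1.44, SE 0.147, adjusted p = 1.76e-05). MT-CO3 changed by -1.40 (adjusted p = 2e-05) and MT-ATP8 by -1.32 (adjusted p = 0.00349). MT-CO2 changed by -0.09 (adjusted p = 0.718) and is named after its value was seen as the smallest. Summed, the 13 genes had 41060 to 42900 FPKM in sh-Ptbp1-3d and 22410, 23740 and 32340 in sh-Ptbp1-7d replicates 1 to 3, and in sh-Luci-3d replicate 3 they had 34900 against 49450 and 51730 in the others of its group. Among cytosolic ribosomal proteins 66 of 81 tested genes fell (81.5%, where 15.5% of all genes fell) and none rose (median log2 fold change -0.93). Of 75 mitochondrial ribosomal protein genes 18 fell and 8 rose (34.7% called, near the 35.8% of all genes), with a median of -0.15.

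Among the genes that build and feed the complexes, the changes went both ways. For each list the background is that 20.3% of all genes rose and 15.5% fell. Of 53 assembly factors 5 rose and 9 fell (26.4% called, against 35.8% of all genes), with a median of 0.02. NDUFAF8, a factor of complex I, fell most (28.1 ± 2.77 to 8.66 ± 0.603 FPKM, log2 fold change -1.68, adjusted p = 2.39e-06), and TMEM126B (-0.78, adjusted p = 7.2e-05) and COA1 (-0.67, adjusted p = 7.58e-05), which act in membrane arm assembly, fell with it. Of the 16 complex I factors these 3 fell and 1 rose. The riser, named for that reason, was NDUFAF4 (0.57, adjusted p = 0.00268). For complex IV, COX17, the copper chaperone, went from 40.6 ± 2.05 to 15.6 ± 1.12 FPKM (-1.37, adjusted p = 3.02e-07), COX20 changed by -1.44 (adjusted p = 7.98e-05) and PET117 by -0.97 (adjusted p = 0.00249), with 2 of 23 higher and 6 lower. For complex III, UQCC1 (0.58, adjusted p = 0.000197) and TTC19 (0.43, adjusted p = 0.000685) rose and none of the 6 fell, and no factor of complex II or of the ATP synthase passed (4 genes each). Of 16 regulators of mitochondrial biogenesis 3 rose (18.8%, near the background) and none fell: PPARGC1A, the coactivator PGC-1 alpha, went from 1.48 ± 0.144 to 5.93 ± 0.741 FPKM (log2 fold change 1.93, SE 0.148, adjusted p = 2.12e-06), PPRC1 changed by 0.73 (adjusted p = 0.000163) and the helicase TWNK by 0.60 (adjusted p = 0.000862). Of 13 enzymes of the citric acid cycle 5 fell and none rose, led by IDH3B (-0.74, adjusted p = 0.000552), SUCLG2 (-0.73, adjusted p = 3.46e-05) and IDH3A (-0.54, adjusted p = 0.000827). Of 12 import, channel and chaperone genes 4 fell, with TOMM20 from 62.7 ± 1.07 to 34.3 ± 1.18 FPKM (-0.87, adjusted p = 4.62e-06), HSPD1 at -0.36 (adjusted p = 0.00477) and VDAC1 at -0.32 (adjusted p = 0.00293). Of 7 subunits and carriers outside the symbol rule, ETFA (-0.53, adjusted p = 0.000646) and NDUFAB1, the acyl carrier protein within complex I (-0.42, adjusted p = 0.00147), fell, and CYCS, cytochrome c, rose (0.29, adjusted p = 0.00488).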

How the data were processed

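Total RNA of U251 cells was sequenced on an Illumina HiSeq. The authors filtered the reads, compared them with a reference and deposited FPKM values per gene for 9 libraries, and their processing notes name HISAT2 and GRCh38. The counting program, the strandedness and the number of reads are not given in the sources used here, so the precision of single values can only be read from the spread of the 3 libraries per group. The table holds 19932 gene symbols and 2363 assembled loci without a symbol. Rows averaging 0.1 FPKM or more (15551) were tested on log2(FPKM + 0.1), on which scale fold changes of low genes are understated, with limma 3.58.1 in R 4.3.3 (empirical Bayes with an intensity trend, one model of 3 groups, Benjamini-Hochberg over all genes tested, two-sided). The FDR was 0.05 for the day 3 comparison and 0.01 for both comparisons that use sh-Ptbp1-7d. The fit was tested on simulated data. The members, the gene lists and the motifs were chosen with earlier results of these data known. Named members were those past the FDR with the largest changes in each complex, those of lowest p at day 3, the most abundant of each complex, the catalytic and core subunits, the isoform sets and ATP5IF1, and up to 3 genes per other list by size of change. For 1 member, kept in all counts, the single values are not reported here. All 87 members were found in GENCODE v29 (GRCh38), where 17 share exons on the same strand with another listed gene, 25 on the opposite strand, and 45 have pseudogenes by name (159), whose reads may be shared. Alternatives changed the pseudocount, the filter, the scaling, the GC and length correction, the trend, the replicate block, the libraries fitted and the FDR. Python 3.11.15 and matplotlib 3.10.9 drew the plots.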

Additional observations from a re-analysis of the deposited data

How the results depend on the processing

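Between days 3 and 7 of the knockdown, 8 of 13 calls held in all 20 alternatives (among them ATP5PB, ATP5MG, UQCRC1, NDUFA3, NDUFS3, NDUFB9 and NDUFB4), and against sh-Luci-3d 6 of 16 did. The count of members past the FDR was 20 with those 2 groups fitted alone (40.3% of all genes), 24 at an FDR of 0.05 (49.9%) and 8 to 25 when 1 library was left out. Against sh-Luci-3d it was 10 with no trend (32.8%), 26 at an FDR of 0.05 (49.8%) and 6 to 30 when 1 library was left out, and at day 3 it was 1 with GC and length correction (0.21%) and 0 to 19 when 1 library was left out. The library that gave the upper end of each range was sh-Luci-3d replicate 3, and sh-Ptbp1-7d replicate 2 gave the lower end for the day 7 counts. The median between day 7 and day 3 was -0.0727 with equal sums, -0.26 with median-ratio scaling and -0.0916 with quantile normalization. Signs turned for NDUFS5 (0.0604 with quantile normalization), COX6B1 (0.0405 with equal sums, 0.38 with quantile normalization, 0.0276 with GC and length correction), ATP5F1B (0.0358 with equal sums, 0.48 with quantile normalization), COX6A1 (0.21) and COX8A (0.0423) with quantile normalization, NDUFS1 (0.0704 with equal sums, -0.13 to 0.13 when 1 library was left out), UQCRFS1 (-0.0301 with GC and length correction), ATP5F1A (-0.38 to 0.14 when 1 library was left out) and ATP5MC3 (-0.0699 with median-ratio scaling, -0.12 with GC and length correction, -0.14 to 0.20 when 1 library was left out). The cause was not tested. Same-numbered libraries did not deviate together (correlations from -0.032 to 0.051 over genes). These correlations cannot show whether such libraries were prepared together, which the labels do not say. With the replicate block 0, 12 and 13 members passed in the 3 comparisons, and the shares of all genes in that fit are not given here. FPKM give no depth, so no limit from read counting can be stated.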
